A study of Mus musculus with 88 samples.

Results

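The DEAD and DEAH box helicase genes were followed in whole blood of a mouse lupus model. Members were the genes whose symbol in the array's annotation begins with Ddx or Dhx followed by a digit, apart from Dhx58. Each member was read from the probe set that is assigned to that gene alone and has the highest mean signal over all arrays. The rule gave 47 members among 17097 genes, and used no difference between groups. The blood came from female SNF1 mice, hybrids of the SWR and NZB strains that develop lupus nephritis with age, and every group shared this background. At 9 weeks of age mice received intraperitoneal pristane, a hydrocarbon oil that provokes lupus-like autoimmunity, or were left untreated. Blood of 8 pristane and 8 untreated mice was profiled at each of weeks 2, 4, 8, 12 and 14, and of 8 untreated mice with spontaneous disease at week 36, with 1 array per mouse and 88 arrays in 11 groups. By the study's methods week 36 is an age and those mice were picked for high proteinuria. No disease-free group of that age is among the samples, so age and disease cannot be told apart there. The study ran more than 1 time course, and the labels do not say from which a mouse came.

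DEAD and DEAH box proteins use ATP to remodel RNA or RNA-protein complexes, and are named after a short amino acid motif in their helicase core. Most of them serve housekeeping steps: assembly of ribosomes in the nucleolus, splicing in the nucleus, and export, translation and decay of messenger RNA in the cytoplasm. A few sense foreign RNA, and Ddx58, which encodes RIG-I, starts the type I interferon response on binding viral RNA and is itself induced by interferon. Blood of patients and mice with lupus is known for raised interferon-induced transcripts, so the family holds both a sensing arm and a large housekeeping arm in the same tissue.

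By role the members fell into 15 genes of ribosome assembly, 12 of splicing, 8 of export, translation or decay, 2 of RNA sensing, 3 of germ cells, 2 of DNA or R-loop unwinding and 1 of mitochondrial RNA, with 4 in no list. The mean of a member over all arrays ran from 1.36 for Ddx4 to 10.8 for Ddx5 on the log2 scale. Ddx4 encodes the germ cell helicase Vasa. Its group means stayed between 1.28 and 1.52, near the bottom of the deposited scale, which began at 0.736. Genes of this family that no probe set was assigned to alone, such as Ddx3y, Ddx19a, Ddx23, Ddx28 and Ddx49, were not analysed here.

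Blood markers were present on every array, with the mean log2 signal of 9 erythroid markers at 7.43 or more, of 8 platelet markers at 9.28 or more and of 10 neutrophil markers at 7.07 or more. A pair of arrays stood apart in ways that touch the results. The array labelled pristane week 4 replicate 1 had a mean of 6.48 over 10 interferon-induced genes, while the other 7 of its group lay between 8.53 and 9.34, and its neutrophil mean of 8.00 was under their lowest of 9.57. It therefore looked unlike its label. Week 4 is given with it, and the number of calls and the differences of Ddx60 and Ddx50 also without it. The array of untreated week 14 replicate 8 had an interquartile range of 3.09 log2 units, while the other 7 lay between 3.47 and 3.78. This range was not equal across groups either: its mean was 3.53 in untreated mice of week 14 and between 3.12 and 3.45 in the other groups.

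The starts of the sensing genes are shown because Ddx60 was called in every week, Ddx58 encodes the best known sensor of the family, and both carry a tandem GAAA motif of the kind bound by interferon regulatory factors. Capitals mark each match to GAAA, any 2 bases and GAAA again, searched on both strands in windows of 300 bases around the start sites of RefSeq, build GRCm38.p6. The stretch of Ddx60 covers the 100 bases before its start at chr8:61927987-61928086, plus strand, and the stretch of Ddx58 covers bases -9 to 20 around its start at chr4:40239806-40239834, minus strand.
Ddx60: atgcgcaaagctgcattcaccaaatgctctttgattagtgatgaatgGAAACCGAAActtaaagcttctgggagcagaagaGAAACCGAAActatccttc
Ddx58: ccctgaggcagTTTCGATTTCctatggcc
Ddx60 held 2 matches on its own strand, at bases -53 to -44 and -19 to -10. Ddx58 held 1 on the opposite strand, at bases 3 to 12. Of the 43 member genes with a promoter in the table these 2 alone held the motif, which was in 3.44% of all 32851 promoters. The same letters with 3 bases between them were in the windows of Ddx52, Dhx15 and Dhx29 and in 2.75% of all promoters. A gamma-activated type of site, TTC, any 3 bases and GAA, was in the windows of Ddx42, Ddx51, Ddx56 and Dhx35 and in 8.3% of all promoters. A match describes letters and does not show that a factor binds there.

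Pristane changed few members before week 14, and a larger number at that week. A gene was called where limma, fitted to all 88 arrays with Benjamini-Hochberg adjustment over 45037 probe sets, gave an adjusted p under 0.05. At week 2, 3 members were called, against 3.58% of all genes, with 2 higher and 1 lower where 2.29% and 1.29% of all genes were. Week 4 gave 2 members against 2.98% of all genes, with 2 higher and 0 lower beside 2.18% and 0.801%. Week 8 gave 3 members against 2.63% of all genes, with 3 higher and 0 lower beside 1.85% and 0.778%. At week 12, 6 members were called against 3.77% of all genes, 3 in each direction beside 2.7% higher and 1.06% lower. At week 14 the number was 12, 2 higher and 10 lower, against 22.4% of all genes. In that week 12.7% of all genes were higher and 9.72% lower, so the share of members that were called was close to the background, while most of the called members were lower.

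Over the 5 weeks 18 of 47 members were called at least once and 29 never, and 26.8% of all genes were called at least once. In 1 week alone 13 members were called, beside 22.5% of all genes. Ddx60 was the sole member called in every week, as were 0.678% of all genes. The median difference between pristane and untreated mice over all 47 members was -0.05 at week 2, -0.19 at week 4, -0.17 at week 8, -0.31 at week 12 and -0.20 at week 14 on the log2 scale. Over all genes the medians were -0.02, 0.00, -0.01, 0.01 and 0.12. At week 12, 36 of 47 members had a negative difference, and at week 14, 34 of 47. Over all genes 8120 of 17097 were negative at week 12 and 6234 of 17097 at week 14. These 47 genes and the 5 weeks were laid out together in the heat map.

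**Figure D1:**
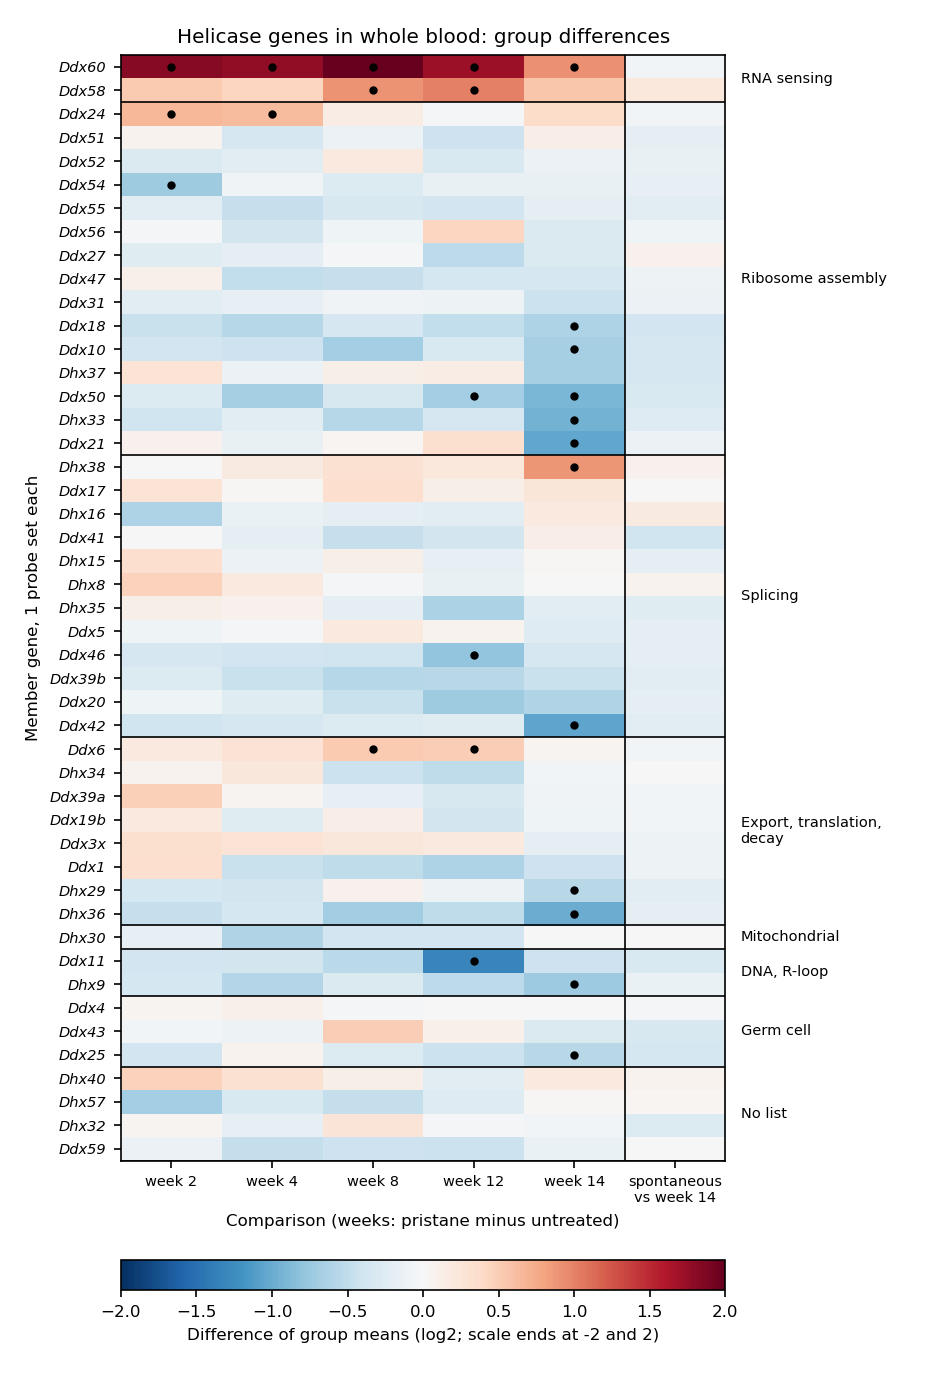
Difference of group means (log2, colour; red higher, blue lower) for each of 47 member genes (rows, grouped by role and ordered by the week 14 difference) in 6 comparisons (columns), with a dot where limma's adjusted p was under 0.05. The row of Ddx60 is red with a dot in all 5 pristane columns, the week 14 column holds 10 dots on blue, and the spontaneous column holds none.

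Among the sensing genes, Ddx60 rose at every week. Ddx60 is an interferon-induced helicase that has been described as a helper of RIG-I signalling. At week 8 its lowest, median and highest log2 signals were 3.30, 4.69 and 4.90 in pristane mice, and 1.41, 2.24 and 2.95 in untreated mice. The groups did not overlap, and the mean was 4.44-fold higher (95% interval 2.95 to 6.69; adjusted p = 2.75e-07). Groups without overlap, pristane higher, made up 0.667% of all genes in that week, 0.69% at week 2 and 0.801% at week 12.

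The rise of Ddx60 was 3.52-fold at week 2 (adjusted p = 1.43e-05) and 3.29-fold at week 12 (adjusted p = 6.01e-05), again without overlap. At week 4 it was 3.40-fold (adjusted p = 3.06e-05), with 7 of 8 pristane arrays above every untreated one. The exception was replicate 1, at 2.51, while the lowest of the other 7 was 2.95, and without it the rise was 3.92-fold. At week 14 the rise was 1.89-fold (interval 1.26 to 2.85; adjusted p = 0.0189), with signals of 2.45, 3.21 and 4.38 in pristane mice and 1.74, 2.30 and 3.16 in untreated mice. The groups overlapped there, and 5 of 8 pristane arrays lay above every untreated one. The difference between the effects at weeks 14 and 2 did not pass the test for Ddx60. Its untreated means of 2.04 to 2.36 lay below 3.89, the median of all deposited values, and the files used here give no detection call, so it is not known whether this probe set was above background in untreated mice.

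Ddx58 was higher at weeks 8 and 12. At week 12 its lowest, median and highest signals were 6.86, 7.32 and 7.92 in pristane mice and 5.59, 6.59 and 6.75 in untreated mice. The groups did not overlap, and the rise was 2.01-fold (interval 1.43 to 2.83; adjusted p = 0.00915). At week 8 it was 1.87-fold, with 7 of 8 pristane arrays above and 1 below all untreated arrays. The differences at weeks 2, 4 and 14 were 0.52, 0.42 and 0.55 on the log2 scale and were not called. Beside these rises, 8 or 9 of 10 interferon-induced genes and 9 or 10 of 10 neutrophil markers were also called higher in each week. In whole blood, more cells of a type and more RNA per cell cannot be told apart, and the part that cell make-up plays in any difference was not tested.

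**Figure D2:**
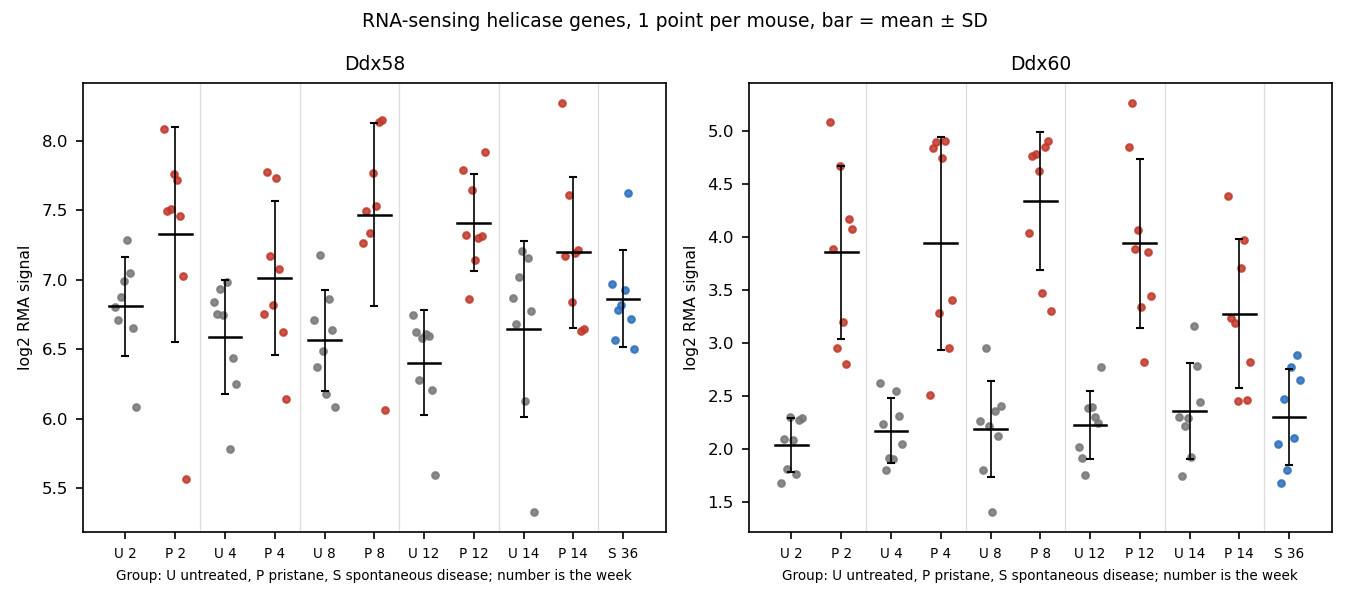
Log2 RMA signal of Ddx58 (left) and Ddx60 (right) on each of 88 arrays, by group (grey untreated, red pristane, blue spontaneous disease), with bars for the mean ± SD of 8 mice. Ddx60 lies higher in the pristane group than in the untreated group of the same week throughout, with week 14 the closest of the 5 pairs, while its spontaneous group sits with the untreated ones.

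Of the ribosome assembly genes, the longest list, 5 of 15 were called lower at week 14 (Ddx21, Dhx33, Ddx50, Ddx10 and Ddx18) and 0 higher, beside 9.72% and 12.7% of all genes. The median difference of the list was -0.33. The calls of Dhx33, Ddx10 and Ddx18 were lost when the interquartile range of the arrays was a covariate. The 5 encode nucleolar or ribosome assembly helicases, among which Ddx21 acts in the synthesis and processing of ribosomal RNA and Ddx50 is its close paralog. Ddx21 had lowest, median and highest signals of 6.15, 7.11 and 8.03 in pristane mice, and of 7.29, 8.14 and 8.78 in untreated mice. The groups overlapped, 6 of 8 pristane arrays lay below every untreated one, and the mean was 2.06-fold lower (interval 1.56 to 2.73; adjusted p = 6.3e-05).

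Ddx50 at week 14 ran from 6.995 through a median of 7.88 to 8.33 in pristane mice and from 8.05 through 8.74 to 9.01 in untreated mice. Its mean was 1.89-fold lower (adjusted p = 0.000365). Ddx50 was also 1.59-fold lower at week 12, the sole ribosome assembly gene called in that week. Dhx33 ran from 4.88 through 5.67 to 6.21 in pristane mice and from 5.82 through 6.67 to 6.75 in untreated mice, 1.93-fold lower (adjusted p = 0.00457). The lowest untreated value of both genes came from replicate 8, the array with the narrow distribution. Ddx10 and Ddx18 were 1.59-fold and 1.53-fold lower.

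Ddx24 and Ddx54, both nucleolar, were called at early weeks. Ddx24 was 1.59-fold higher at week 2 and 1.55-fold higher at week 4, with 6 and 4 of 8 pristane arrays above every untreated one. Ddx54 was 1.64-fold lower at week 2 (adjusted p = 0.00722). Its signals were 5.80, 6.17 and 6.37 in pristane mice and 6.56, 6.73 and 7.37 in untreated mice, without overlap, which held for 0.17% of all genes in that direction. Neither gene was called at weeks 8, 12 or 14, where Ddx24 stood at 0.15, -0.04 and 0.37 on the log2 scale. The change from week 2 to week 14 did not pass the test for Ddx24 (adjusted p = 0.51) or Ddx54 (adjusted p = 0.141). The other 8 ribosome assembly genes were called in no week.

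Of the 12 splicing genes, 1 was called higher and 1 lower at week 14, beside 12.7% and 9.72% of all genes. Dhx38, which encodes the PRP16 helicase that remodels the spliceosome between its catalytic steps, had signals of 7.07, 7.33 and 8.47 in pristane mice and 6.42, 6.60 and 6.99 in untreated mice. The groups did not overlap, which held for 0.883% of all genes with pristane higher, and the rise was 1.84-fold (interval 1.55 to 2.19; adjusted p = 9.62e-08). Among the untreated arrays replicate 8 was the highest, at 6.99. Dhx38 was not called at weeks 2 to 12.

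Ddx42, a helicase associated with the SF3b complex of the spliceosome, was 2.08-fold lower at week 14 (interval 1.61 to 2.69; adjusted p = 1.21e-05). Its signals were 5.91, 7.74 and 8.29 in pristane mice and 7.74, 8.60 and 8.89 in untreated mice. The pristane group was spread widely, with replicates 7 and 8 at 5.91 and 6.55 and the other 6 between 7.23 and 8.29. Ddx46, the PRP5 helicase of early spliceosome assembly, was 1.73-fold lower at week 12 without overlap (adjusted p = 0.0121), and such groups with pristane lower were 0.0877% of all genes.

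The remaining 9 splicing genes were called in no week. Ddx20, a partner of the SMN complex, had a week 14 difference of -0.60 (adjusted p = 0.0656). Ddx39b, which links splicing to export, had differences between -0.57 and -0.28 over the 5 weeks. Ddx5, a splicing and transcription cofactor, lay between -0.25 and 0.20, with 95% intervals that reached no further than -0.62 and 0.57. Ddx41, also known as a sensor of DNA, was at 0.14 in week 14, and Dhx15, the helicase of spliceosome disassembly, was at 0.02.

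In the export, translation and decay list, 2 of 8 members were lower at week 14, beside 9.72% of all genes. Dhx36, which unwinds G-quadruplexes in RNA and DNA, had signals of 2.86, 3.58 and 4.72 in pristane mice and 4.25, 4.63 and 5.28 in untreated mice. Of the 8 pristane arrays 7 lay below every untreated one, and the mean was 2.00-fold lower (adjusted p = 0.0054). Dhx29, a helicase of translation initiation, was 1.48-fold lower (adjusted p = 0.0448), with 2 pristane arrays below and 1 above all untreated arrays, and lost its call under 5 of 10 alternatives.

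Ddx6, a helicase of mRNA decay and storage, went the other way at middle weeks. It was 1.43-fold higher at week 8 and 1.40-fold higher at week 12, with 7 and 6 of 8 pristane arrays above every untreated one. Both calls were lost with the mean of its probe sets, at 0.11 (adjusted p = 0.883) and -0.008 (adjusted p = 0.992), and with a fit of the groups compared alone (adjusted p = 0.14 and 0.0702). Ddx3x, a helicase of translation initiation, was called in no week, with differences of 0.32, 0.28, 0.23, 0.20 and -0.20 in order of time. The change of its effect from week 2 to week 14 did pass the test, at -0.52 (SE 0.16, adjusted p = 0.0298). Ddx1 had differences of 0.34 at week 2 and -0.62 at week 12, neither called.

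Outside these lists, Dhx9, which unwinds RNA, DNA and their hybrids, was 1.66-fold lower at week 14 (adjusted p = 0.00251). Its signals were 6.33, 7.28 and 7.71 in pristane mice and 7.39, 7.96 and 8.38 in untreated mice, and 6 of 8 pristane arrays lay below every untreated one. Ddx11, a DNA helicase of sister chromatid cohesion, was called lower at week 12, with signals of 3.89, 5.54 and 6.13 in pristane mice and 6.39, 6.58 and 7.26 in untreated mice that did not overlap. Its difference was -1.33 in that week and between -0.54 and -0.37 in the others, and the effects of weeks 14 and 12 did not differ by the test (adjusted p = 0.276). Of the germ cell genes, Ddx25 was 1.47-fold lower at week 14, while Ddx43 and Ddx4 were called in no week. Dhx30, the mitochondrial member, and Dhx32, Dhx40, Dhx57 and Ddx59, which were in no list, were called in no week.

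**Figure D3:**
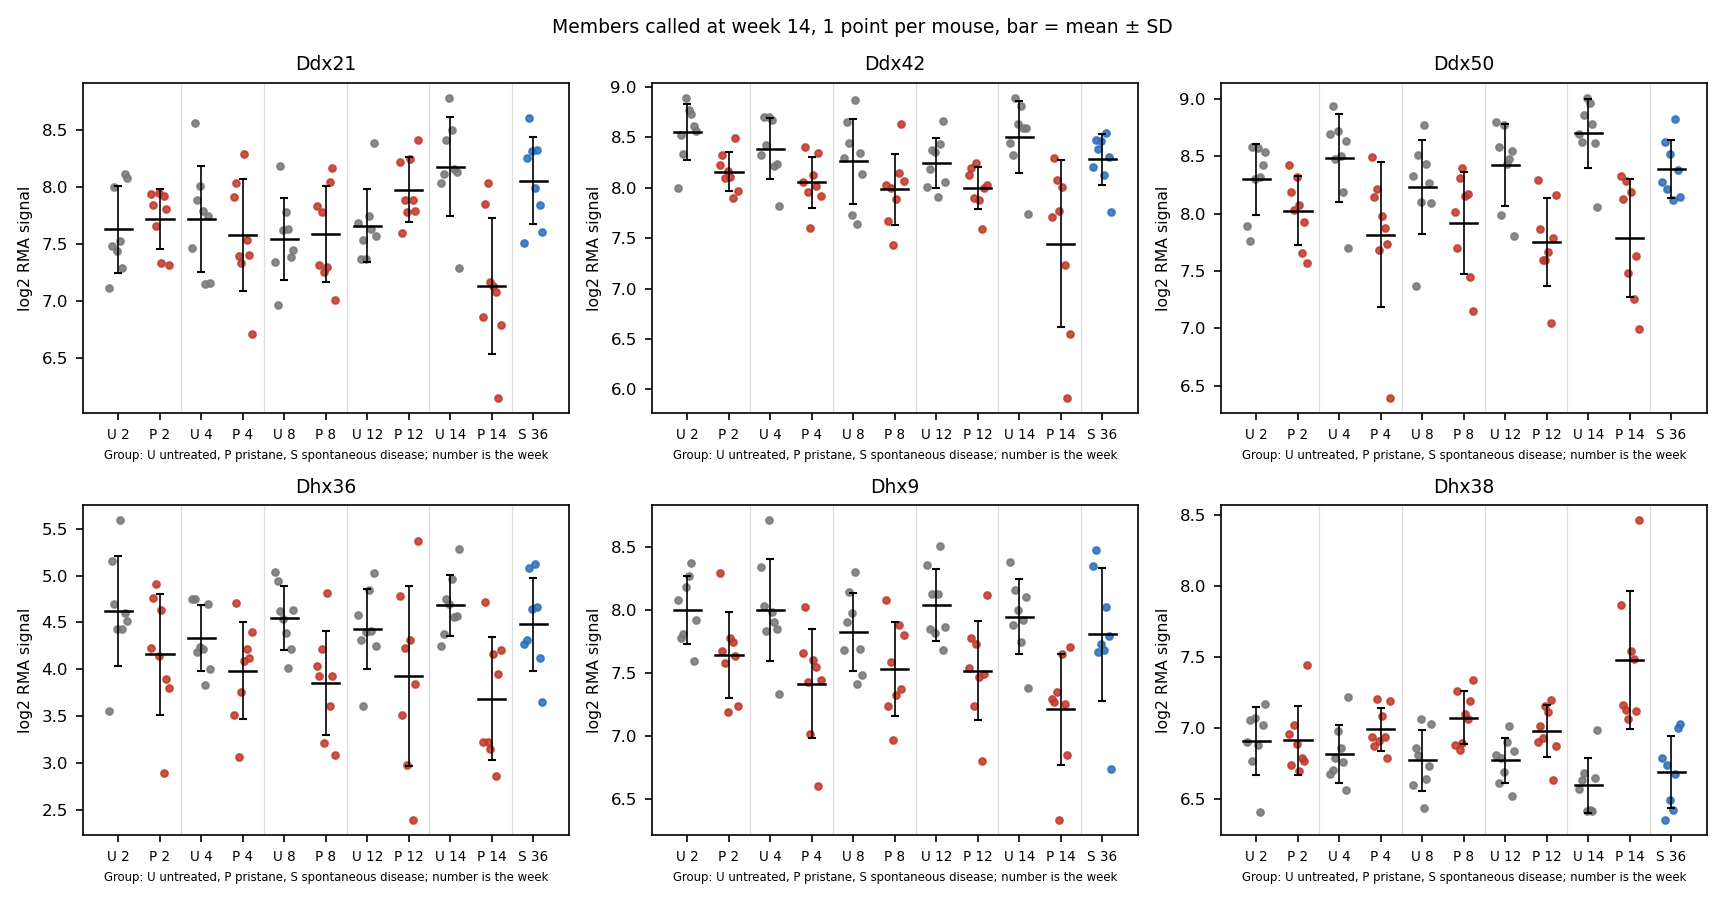
Log2 RMA signal of 6 members called at week 14 on each of 88 arrays, by group (grey untreated, red pristane, blue spontaneous disease), with bars for the mean ± SD of 8 mice; axes do not start at 0. Ddx21, Ddx42, Ddx50, Dhx36 and Dhx9 lie lower and Dhx38 higher in pristane than in untreated mice of week 14, and the Ddx42 pristane group of that week holds 2 low arrays at 5.91 and 6.55.

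The week 14 comparison was also read from both of its sides. Between untreated mice of weeks 14 and 12, limma called no member and 0.0702% of all genes. At an unadjusted p under 0.05 there were 3 members, and 2911 of the 17097 genes, so these controls were not alike. The median member was 0.13 higher at week 14, and the median over all genes was -0.04. Between pristane mice of the same weeks, 4 members were called against 3.52% of all genes, 3 higher and 1 lower at week 14 beside 2.2% and 1.32%. They were Dhx34, a helicase of nonsense-mediated decay, at 0.76, Ddx41 at 0.67, Dhx38 at 0.50 and Ddx21 at -0.84. The effect of pristane itself differed between weeks 14 and 12 for 2 members, against 2.15% of all genes (0.877% upward and 1.28% downward), with Ddx21 at -1.36 (SE 0.29, adjusted p = 0.00391) and Dhx38 at 0.68 (SE 0.18, adjusted p = 0.022). Between weeks 14 and 2 it differed for 3, against 6.87% of all genes (4.19% upward and 2.67% downward), with Ddx21 at -1.14, Dhx38 at 0.88 and Ddx3x as above. For Ddx21 the mean went from 7.66 to 8.18 in untreated mice and from 7.98 to 7.13 in pristane mice between weeks 12 and 14. These comparisons share arrays with the week 14 comparison and are not separate evidence of it.

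With untreated mice of week 12 as the control of pristane mice of week 14, 8 members were called, 3 higher and 5 lower, against 10.4% of all genes, with 6.53% higher and 3.87% lower. Of the 8, 6 were among the 12. Ddx42, Ddx50, Dhx33 and Dhx9 were then still called lower and Dhx38 and Ddx60 higher, while Ddx21 (adjusted p = 0.0857), Dhx36 (adjusted p = 0.0715), Ddx10, Ddx18, Dhx29 and Ddx25 were not. When the interquartile range of the arrays entered the model as a covariate, 14 members were called at week 14 against 15.6% of all genes, 7 higher and 7 lower beside 10.4% and 5.22%. Ddx42 was then at -0.84, Ddx21 at -0.68, Ddx50 at -0.54, Dhx9 at -0.47 and Dhx38 at 0.79, all still called. Ddx58, Ddx17, Ddx24, Dhx15 and Dhx16 were added as higher, and Ddx27 and Dhx37 as lower, while Dhx33, Ddx10, Ddx18, Dhx29 and Ddx25 were lost. Ddx10 kept its size, at -0.69 with the covariate and -0.67 without (adjusted p = 0.0518 with it), while the other 4 shrank, Dhx33 from -0.95 to -0.49. The balance of higher and lower members at week 14 thus depended on how the arrays' spread was treated, and whether that spread is technical was not tested.

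The mean over the 47 members, like this spread, was lower in pristane than in untreated mice of week 14. It was 6.70 in untreated and 6.47 in pristane mice, where the mean interquartile ranges were 3.53 and 3.25. At week 12 the member means were 6.57 and 6.38, with ranges of 3.30 and 3.22. Whether the member mean and the spread move together over the arrays was not tested. At week 14 all 8 platelet markers and 4 of 9 erythroid markers were called higher, and 6 of 8 B cell and 4 of 8 T cell markers lower. At weeks 2 to 12 no platelet or erythroid marker was called. The erythroid mean was 7.98 in untreated mice of week 14 and between 8.67 and 8.83 in the other untreated groups. In pristane mice it was 8.84 at week 14 and 8.78 at week 12. B cell markers were also lower at weeks 2, 4, 8 and 12 (2, 4, 1 and 3 of 8), and T cell markers at weeks 4 and 12 (1 and 2 of 8). Of 6 NK cell markers 2, 1, 3, 0 and 3 were lower in order of time, and 1 was higher at week 14. Among 7 monocyte markers 2, 3, 2, 4 and 2 were higher and 1, 0, 1, 0 and 1 lower in order of time. Platelet means ran from 10.1 to 11.1 in pristane and from 9.44 to 10.03 in untreated mice of week 14, B cell means from 7.02 to 8.47 and from 8.22 to 8.93, and T cell means from 7.02 to 8.06 and from 7.06 to 8.51. The part of these cell types in the helicase differences was not tested.

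**Figure D4:**
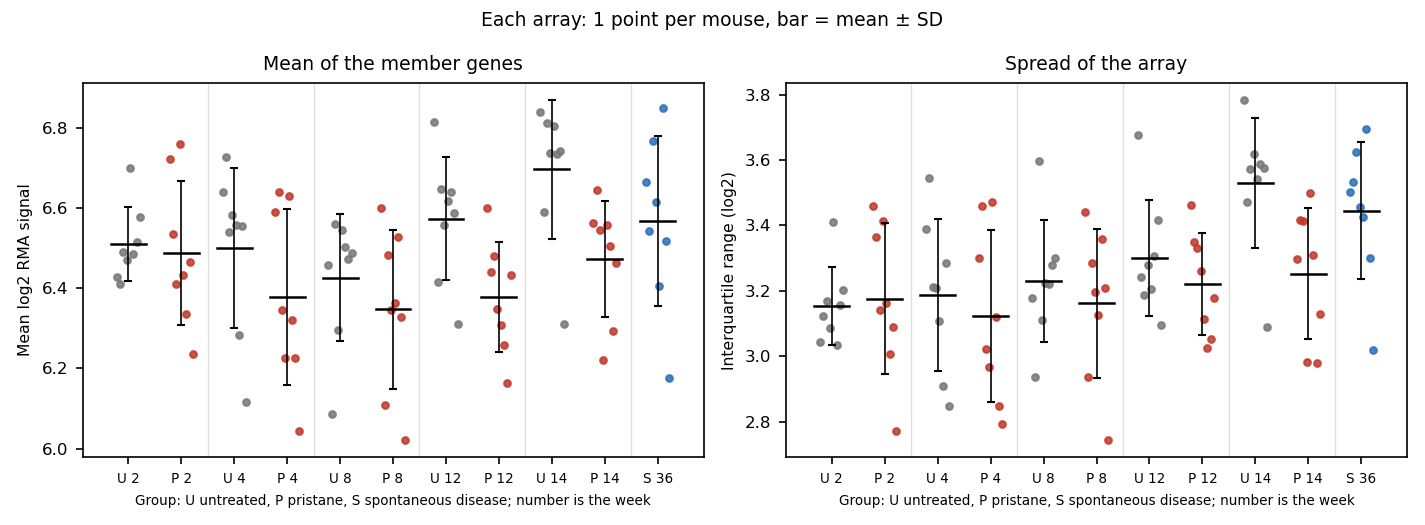
Mean log2 RMA signal of the 47 members (left) and interquartile range of all deposited values (right) on each of 88 arrays, by group (grey untreated, red pristane, blue spontaneous disease), with bars for the mean ± SD of 8 mice; axes do not start at 0. Untreated mice of week 14 have the highest group mean in both panels, 6.70 and 3.53, and their replicate 8 lies lowest in both.

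For mice with spontaneous disease, compared with untreated mice of week 14, limma called none of the 47 members, with 1 at an unadjusted p under 0.05, and 0% of all genes, with 594 at an unadjusted p under 0.05. With all untreated mice as the control, again no member was called, but 1.41% of all genes were. The median member difference was then 0.04, where it was -0.14 against untreated mice of week 14. Ddx60 had signals of 1.68, 2.29 and 2.89 in the spontaneous group, a difference of -0.06 from untreated mice of week 14 with a 95% interval of -0.65 to 0.53. For Ddx58 the difference was 0.22, with an interval of -0.28 to 0.71. The intervals thus do not exclude moderate changes in either gene. The spontaneous means of Ddx18 and Ddx25, at 8.37 and 4.999, lay nearer to those of pristane mice of week 14, at 8.15 and 4.80, than to those of untreated mice, at 8.76 and 5.35. Neither gene was called between the spontaneous group and either of these groups. Another 7 of the 12 members called at week 14 did differ between pristane mice and the spontaneous group, as given next. A pattern over the 12 was not tested.

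Pristane mice of week 14 differed from the spontaneous group in 7 members, 2 higher and 5 lower, against 10% of all genes, with 5.59% higher and 4.42% lower. Ddx60 was 1.97-fold and Dhx38 1.73-fold higher, the latter without overlap, which held for 0.374% of all genes in that direction. Ddx21 was 1.90-fold, Ddx42 1.79-fold, Dhx36 1.74-fold, Ddx50 1.52-fold and Dhx9 1.51-fold lower. Dhx36 lost this call under 4 of 8 alternatives, Ddx50 and Dhx9 under 3 each and Ddx42 under 1. Ddx21 and Dhx38 kept theirs under all 8, and Ddx60 under all 7 that held it. This comparison uses the same pristane arrays as the one with untreated mice. Of the 10 interferon-induced genes 8, and of the 10 neutrophil markers 7, were also higher in pristane mice here.

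Several members had further probe sets that told a different story from the one used for the gene. Of the 47 members 25 had more than 1 probe set assigned to them alone, which added 35. At week 14, 12 of these 35 were called lower and 1 higher, against 12.1% lower and 8.63% higher among the 11801 further probe sets of all genes. They belonged to 9 members, of which Ddx18, Ddx21, Dhx36 and Dhx38 were also called by the probe set used for the gene, in the same direction. Ddx17, Ddx3x, Ddx46, Ddx6 and Dhx30 were called by a further probe set alone. Of the 12 members called at week 14, 9 had a further probe set, and for 5 of these (Ddx10, Ddx50, Dhx29, Dhx33 and Dhx9) none was called. The further probe set of Ddx50 had a difference of -0.06, and those of Dhx9 had -0.27 and 0.04.

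Ddx6 showed the widest gap. The probe set used for the gene had a week 14 difference of 0.05, while the others had -1.27 and -1.72. The last of these had signals of 4.02, 4.95 and 5.57 in pristane mice and 5.93, 6.48 and 7.09 in untreated mice, without overlap. Further probe sets of Ddx17, Ddx18, Ddx3x and Ddx46 described next also reached this, and 1.93% of the further probe sets of all genes did with pristane lower. Its means in the other 10 groups lay between 5.99 and 6.51, and the effect of pristane was larger at week 14 than at week 12 by -1.50 (adjusted p = 0.0121). Ddx3x showed the same gap, with -0.20 for the probe set of the gene and -0.66 and -0.88 for the others. The latter probe set had a mean of 7.41 in pristane mice of week 14 and between 8.11 and 8.49 in the other groups.

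Ddx17, a paralog of Ddx5, differed between its probe sets at every week. The one used for the gene was called in no week, with differences between 0.03 and 0.33. The other was lower at weeks 2, 4, 8, 12 and 14, by -0.81, -1.10, -1.10, -1.09 and -1.53 on the log2 scale. It had signals of 3.92, 5.01 and 6.02 in pristane mice of week 14 and 6.10, 6.63 and 6.87 in untreated mice. The spontaneous group, at a mean of 6.18, lay with the untreated groups at 6.37 to 6.52 and above all pristane groups at 4.97 to 5.63.

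For Ddx46 the week 14 difference was -0.34 in the probe set of the gene and -1.35, -1.003 and -0.69 in 3 of the 4 others. A further probe set of Ddx46 was also called lower in each of weeks 4, 8 and 12. The probe set used for Ddx46 was called at week 12 alone. For Ddx18 the week 14 difference was -0.61 against -1.48 in one of the others, and for Dhx30 -0.01 against -0.77. For Ddx58 the direction of time differed: a further probe set was higher at weeks 2 and 8, by 1.12 and 1.10, and stood at -0.05 in week 14. At week 12, where the probe set of the gene was called, no further probe set of Ddx58 was. The remaining probe set of Ddx58 was called in no week. It leaned the other way at week 8, with 6 of 8 pristane arrays below and 0 above every untreated one. The annotation used here gives neither the position of a probe set within its transcript nor the transcript form it detects, so whether these gaps reflect transcript ends, isoforms or signal strength was not tested.

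**Figure D5:**
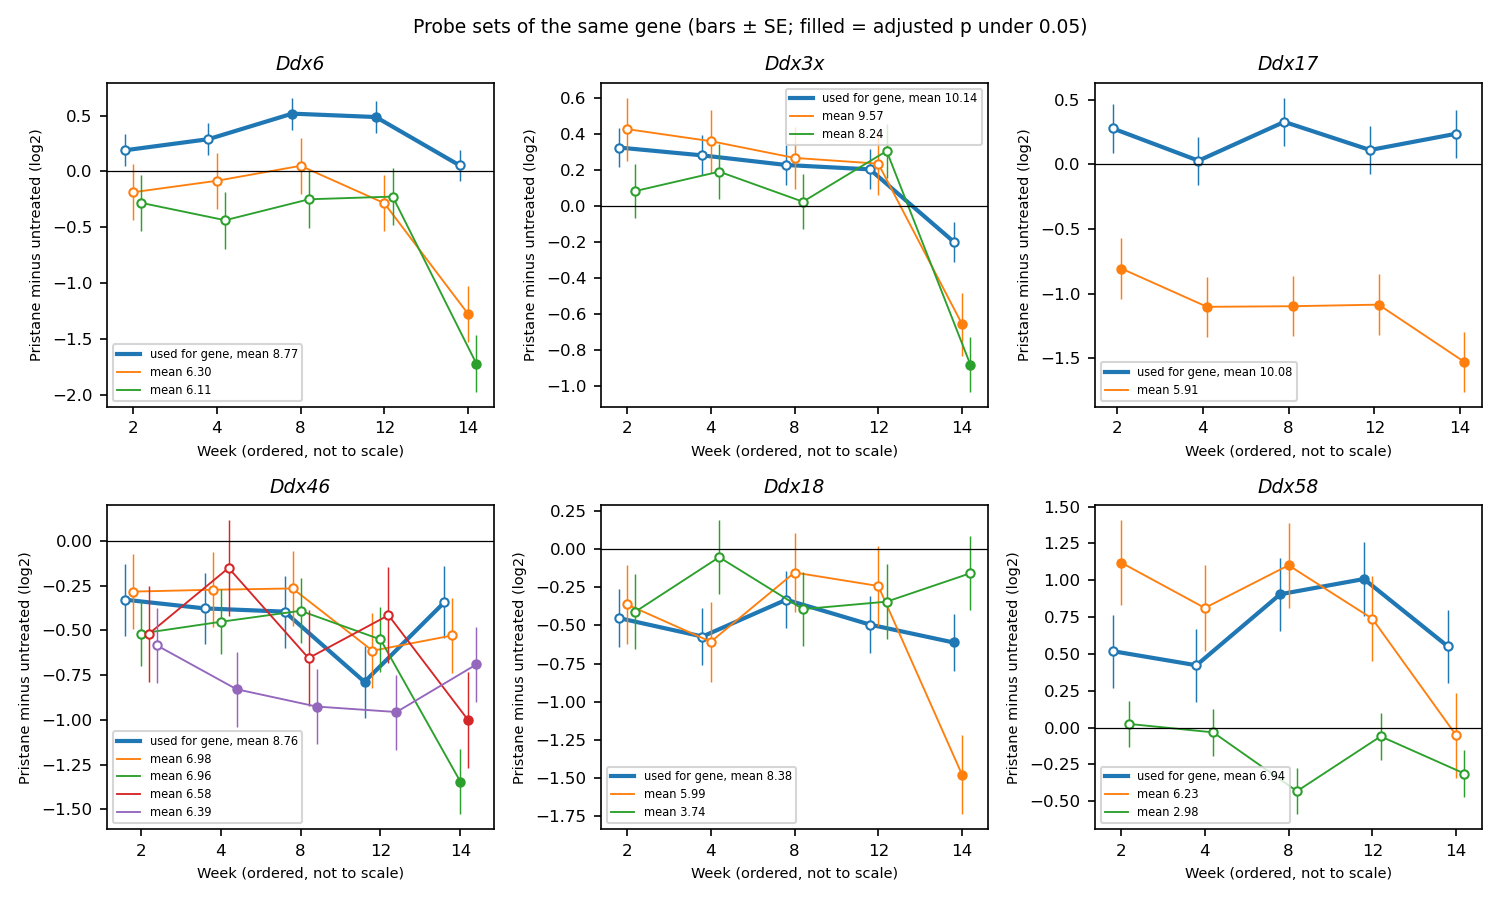
Difference between pristane and untreated mice (log2, vertical) at weeks 2, 4, 8, 12 and 14 (horizontal, ordered but not to scale) for every single-gene probe set of 6 members, with bars of ± 1 SE and filled points where limma's adjusted p was under 0.05; the legend gives each probe set's mean over 88 arrays. The thick line is the probe set used for the gene, and further probe sets of Ddx6, Ddx3x and Ddx18 drop at week 14 while that of Ddx17 lies below 0 in all 5 weeks.

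Of 16 other helicase genes outside the name rule, the sensors moved with Ddx60. Ifih1, which encodes the double-stranded RNA sensor MDA5, was called higher at every week, by 1.98, 1.80, 1.39, 1.70 and 1.29 on the log2 scale in order of time. Dhx58, which encodes LGP2, the third RIG-I-like protein, was higher by 1.82, 1.63, 1.17, 1.45 and 0.87. No other gene of this list was called at weeks 2 to 12. At week 14 Skiv2l, the helicase that feeds RNA to the exosome, was higher by 0.58. Ascc3, Helz, the nonsense-mediated decay helicase Upf1 and the translation initiation helicase Eif4a1 were lower, at -0.83, -0.76, -0.65 and -0.65. The list had 3 of 16 genes higher and 4 lower in that week, beside 12.7% and 9.72% of all genes.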

How the data were processed

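Whole blood RNA of 88 mice was hybridised to Affymetrix HT MG-430 PM plates, 1 array per mouse. The authors summarised probe intensities with RMA, and the deposited values are log2 signals per probe set (submitters' notes name RMA and Partek). The files hold 45141 probe sets, of which 45037 were tested after removal of 104 controls, dim ones included. The array's annotation table assigned 28898 of them to 1 gene, 551 to several and did not list 15588. All 47 members matched RefSeq by Entrez ID.

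Groups came from the labels. A linear model with 11 group means was fitted over all 88 arrays (limma 3.58.1, R 4.3.3) and differences taken as contrasts, with Benjamini-Hochberg adjustment over the 45037 probe sets within each of 11 comparisons. Fold changes are antilogs of log2 differences, and intervals cover 95%. The number of arrays limits the precision. Plate position and scan date are not given in the sources used here. The procedure was tested on simulated data. Members and lists were chosen with earlier results of these data known. Members called, those with large week 14 differences in each role list, and members of known roles were described in full. Alternatives covered scaling, array spread, dim probe sets, the probe set of a gene, the samples fitted, replicate numbers, array weights and control groups. Leaving out pristane week 4 replicate 1 or untreated week 14 replicate 8 was chosen after seeing the data. Promoters were RefSeq windows of 300 bases.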

Additional observations from a re-analysis of the deposited data

Results flagged for a closer look

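Within groups of 8 arrays, the gap of the highest or lowest array to its neighbour was set against the group's range for the mean of the members and for the called members, in 63 tests. A gap above Dixon's 95% critical value was found in 9 of them, where chance gives about 1 in 20 for a single test. The 63 tests share arrays and are not independent, so the 9 cannot be judged against that rate. Untreated week 14 replicate 8 accounted for 5. Its gap was 0.528 of the range for the mean of the 47 members (6.31, with the next array at 6.59), 0.585 for Ddx50, 0.536 for Dhx29 and 0.771 for Dhx33, always as the lowest array, and 0.527 for Dhx38 as the highest. Replicate 8 of pristane week 8 was the lowest for Ddx58 at 0.576 and for Ddx6 at 0.634, and replicate 8 of untreated week 12 was the lowest for Ddx58 at 0.530. Replicate 3 of pristane week 12 was the lowest for Ddx6 at 0.531. Replicate 8 had the narrowest distribution of signals in 7 of the 11 groups.

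The effect of pristane differed between weeks by limma's test of the difference itself for 3 members. For Ddx21 the effect at week 14 minus that at week 12 was -1.36, and minus that at week 2 it was -1.14. For Dhx38 the same differences were 0.68 and 0.88, and for Ddx3x the difference from week 2 was -0.52.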

How the results depend on the processing

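Of 96 alternatives over the 11 counts of called members, 76 left the count within 1.5 times. These include counts of 0 that stayed at 0, as for the spontaneous group, and a similar count need not hold the same members. At week 14 the covariate of interquartile range gave 14 members, of which 7 were among the 12 called without it. With the interquartile range as covariate the count was 5 at week 2, 7 between pristane weeks 14 and 12, and 5 for the effects of weeks 14 and 2. The shares over all genes were 7.31%, 6.54% and 6.49%. With the mean of all probe sets of a gene the count was 7 at week 2, 5 at week 4, 11 against the spontaneous group and 4 for the effects of weeks 14 and 12. Of all genes 4.13%, 3.59%, 11.9% and 2.84% were called there. With array weights the count was 5, 4, 2 and 6 at week 2, week 4, untreated weeks 14 and 12, and the effects of weeks 14 and 2. The shares of all genes rose as well, to 6.88%, 3.85%, 15.4% and 13.9%. Fitting the groups compared alone gave 1 at week 4, 1 at week 8, 3 against the spontaneous group, 0 between pristane weeks 14 and 12 and 1 for the effects of weeks 14 and 12. That fit called 1.66%, 2.42%, 5.12%, 0.807% and 1.49% of all genes in the same order. Quantile normalization and centring on the brightest probe sets each gave 4 at week 4, beside 3.64% and 3.49% of all genes. Without pristane week 4 replicate 1 the count at week 4 was 4, beside 3.9% of all genes, with Ddx18 and Ddx50 added as lower. Without untreated week 14 replicate 8 the count was 14 at week 14, 2 higher and 12 lower, beside 27.7% of all genes. For the effects of weeks 14 and 2 it was then 5, beside 8.55%.

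At week 14 the count ran from 8 with the week 12 control to 17 with the mean of all probe sets. The share of all genes called in these was 10.4% and 26%. The split of higher and lower members was 4 and 7 after centring, which moved the median of all genes from 0.12 to 0.23. After quantile normalization it was 3 and 9. Centring called 24% of all genes and quantile normalization 20.4%. Ddx42, Ddx50, Dhx9 and Dhx38 were called at week 14 under all 10 alternatives, though with the mean of all probe sets Ddx50 shrank from -0.92 to -0.49 and Dhx9 from -0.73 to -0.32. Ddx60 was called under 8 of 9, with an adjusted p of 0.0510 after quantile normalization. Ddx6 at week 12 turned to -0.008 with the mean of its probe sets. Of 361 repeats of the 42 calls of single members, 315 kept the call, 45 lost it and 1 turned.

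Same-numbered mice deviated together (correlation over 0.1) in 10 of 40 pairs, with a median correlation of 0.02, which did not show that the numbers pair the samples. The labels do not say whether a number marks a shared batch. With the replicate number as a block the calls were 4, 3, 4, 8 and 16 in order of time. They were 0 for the spontaneous group, 7 for pristane mice against it, and 0, 5, 2 and 4 for the other comparisons. Each lay within 1.5 times the count without the block. The block called 4.44%, 3.56%, 3.22%, 4.54% and 25.4% of all genes in order of time. For the spontaneous group it called 0%, for pristane mice against it 12.1%, and for the others 0.17%, 4.75%, 2.86% and 8.67%.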
